A study of Mus musculus with 13 samples.

Results

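Pitx1, Prrx1, Prrx2 and Shox2 are paired-class homeobox genes, and they were followed across the development of the mouse heart in single-cell RNA sequencing data. They were picked by symbol, as 4 of the 27998 genes counted in every matrix. The study dissociated wild-type C57Bl/6J embryos at E8.5 and E10.5, whose head and limbs had been cut off, and whole hearts from E12.5, from E14.5, from E16.5 and from postnatal day 3 (P3), and sequenced the cells in droplets. Each droplet marks its transcripts with a cell barcode, and each transcript with a random tag (UMI), which lets PCR copies be counted once. E10.5, E12.5, E14.5 and E16.5 had 2 matrices each, here called libraries, E8.5 had 1 (replicate 2; replicate 1 was not analysed here), and P3 had 1 pooled matrix. For E16.5 replicate 1 the labels hold a second record, 1F, that names the same matrix, so that matrix counted as 1 replicate. How many embryos or hearts went into a library is not given in the sources used here. All groups were wild type and untreated, and the early groups differ from the later ones in tissue as well as in age. No test was made with E8.5, which had 1 library, or with P3, whose barcodes carry 2 suffixes that the labels do not tie to its 2 records, so that the matrix counted as 1 sample. A difference between E10.5 and E12.5 cannot be told apart from the difference between a trimmed embryo and a heart.

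Homeobox genes encode transcription factors that read DNA through a homeodomain, whose usual core recognition sequence is TAAT. Shox2 is required for the sinus node, the pacemaker of the heart, where it holds back the programme of the working atrial muscle. Prrx1 and Prrx2 are closely related genes of embryonic mesenchyme, known from the limb bud, the pharyngeal arches and the cushions from which heart valves form. Pitx1 sets the identity of the hindlimb and acts in the first pharyngeal arch and the pituitary.

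In the mouse assembly GRCm38 with the GENCODE vM21 annotation, Shox2 (ENSMUSG00000027833) lies at chr3:66971727-66981771 on the minus strand, and Rsrc1 overlaps it on the opposite strand. Prrx1 (ENSMUSG00000026586) lies at chr1:163245119-163313710 on the minus strand with 3 overlapping genes, Gm20471 on the opposite strand and Gm26523 and Gm37644 on the same strand. Prrx2 (ENSMUSG00000039476) lies at chr2:30834972-30881251 on the plus strand with no overlapping gene. Pitx1 (ENSMUSG00000021506) lies at chr13:55825051-55836192 on the minus strand, with Gm28760 on the same and Gm47071 on the opposite strand. All 4 are protein coding. Reads shared with a gene on the same strand could not be assigned, so the values of Pitx1 and Prrx1 carry that limit. RefSeq promoter sequences (GRCm38.p6) were found for 3 of the 4 members, Pitx1 having no entry. The stretches upstream of Shox2 and Prrx1 are shown, and that of Prrx2 is not because its window starts inside an annotated exon. Capitals mark the core TAAT on either strand (ATTA on the other). Shox2 is shown over chr3:66981772-66982021 and Prrx1, shortened to the bases before its annotated exons, over chr1:163313711-163313900, both read on the minus strand.
Shox2: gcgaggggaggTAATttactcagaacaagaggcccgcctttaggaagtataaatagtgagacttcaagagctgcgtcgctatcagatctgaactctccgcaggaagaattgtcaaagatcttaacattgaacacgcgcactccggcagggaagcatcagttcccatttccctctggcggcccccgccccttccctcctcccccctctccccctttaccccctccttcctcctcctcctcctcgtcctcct
Prrx1: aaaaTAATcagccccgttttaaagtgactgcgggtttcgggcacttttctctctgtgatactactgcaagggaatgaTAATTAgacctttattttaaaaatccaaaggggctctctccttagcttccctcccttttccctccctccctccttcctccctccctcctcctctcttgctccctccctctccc
The Shox2 stretch held 1 core match over 250 bases, and a TATAAA match at its tataaa run, at 55.6% G and C. The Prrx1 stretch held 3 core matches over 190 bases, with no TATAAA, at 48.9% G and C. Among 32851 promoters, TAAT on either strand occurs in 54.9% of windows of 250 bases and in 48.9% of windows of 190 bases, and 3 or more times in 12.9% of the latter, whereas TATAAA on the gene strand occurs in 7.59% of windows of 250 bases and in 4.78% of windows of 190 bases. The median promoter held 52.4% G and C.

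Barcodes with at least 2000 UMIs were kept, between 4928 and 14675 per library, from matrices that hold between 67141166 and 259041468 UMIs. The 2 libraries of a stage shared between 42 and 264 kept barcodes, against 38.4 to 284 expected by chance. Cardiomyocytes were barcodes with at least 1500 CPM (counts of a gene scaled to 1e+06 UMIs) of Tnnt2, the cardiac troponin T gene. Mesenchyme was the class with at least 10 UMIs of the fibrillar collagen genes Col1a1, Col1a2 and Col3a1, and barcodes that passed both gates, at most 130 in a matrix, were left out of both. The embryos gave 138 cardiomyocytes at E8.5 and 121 and 109 in the E10.5 libraries, and the hearts gave 2533 to 3893 in a library and 7046 at P3. Mesenchyme came to 126 barcodes at E8.5, 440 and 386 in the E10.5 libraries, 614 to 1387 in a heart library and 1919 at P3. From E12.5 on, cardiomyocytes were placed on the atrial or the ventricular side by the ratio of the atrial light chain and sarcolipin genes (Myl7, Sln) to the ventricular light chain genes (Myl2, Myl3). The sides held up on genes the ratio did not use. Nr2f1, an atrial transcription factor gene, was at 46.7 to 280 CPM on the atrial side and at most 3.39 CPM on the ventricular side, and Irx4, a ventricular one, was at 37.0 to 57.6 CPM on the ventricular side and at most 1.73 CPM on the atrial side. Unless stated otherwise, levels are CPM of all UMIs summed over a class in a library, and a pair of values is the first and the second library of a stage. Levels are compared for one gene across classes and not between genes. Intervals are exact 95% intervals and cover counting error only.

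**Figure D1:**
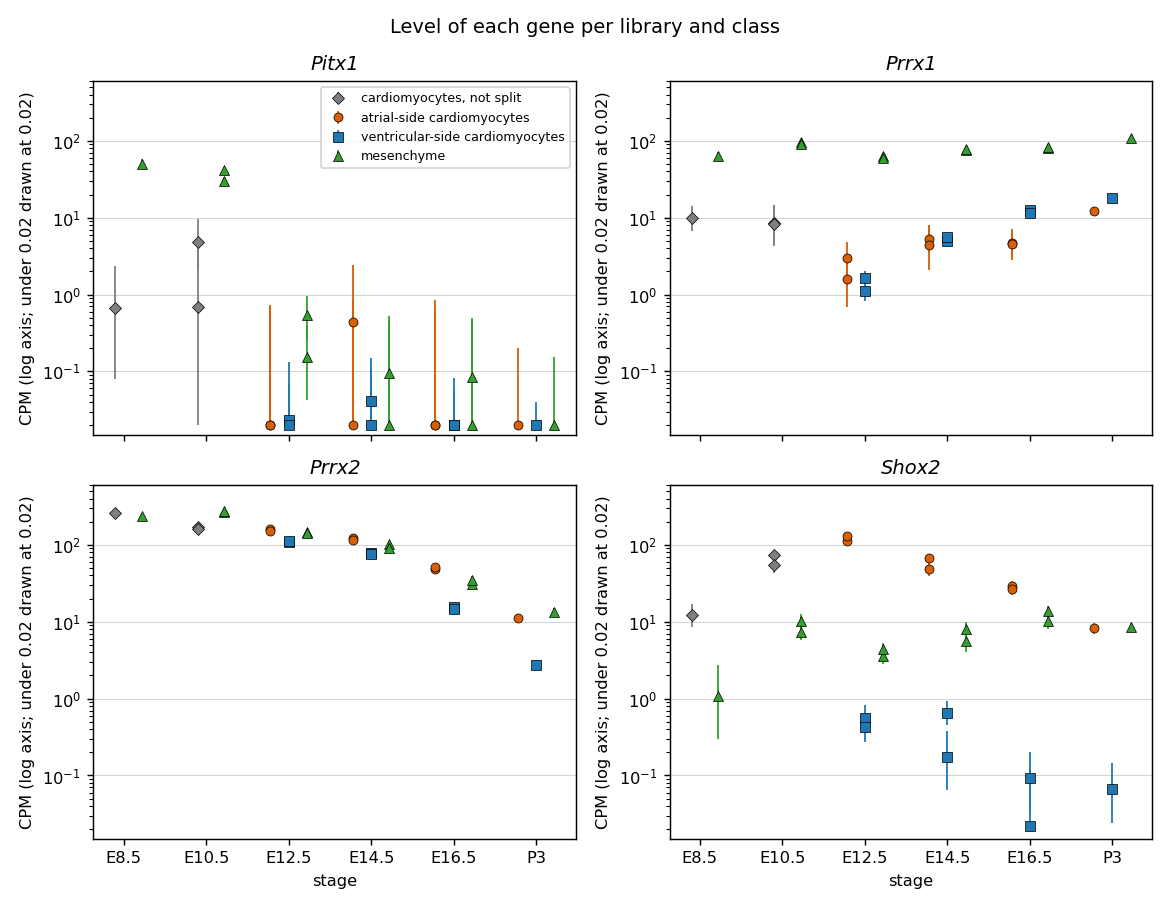
Level of Shox2, Prrx1, Prrx2 and Pitx1 in each library, in CPM on a logarithmic axis, by developmental stage and cell class, with exact 95% Poisson intervals as error bars. Shox2 stood high only on the atrial side among the split cardiomyocytes, Prrx2 fell with stage from E10.5 on in the classes shown, and Pitx1 was near 0 after E10.5.

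Shox2 was an atrial gene at every stage with a chamber split. Atrial-side cardiomyocytes held 113 and 130 CPM at E12.5, 68.2 and 48.4 CPM at E14.5, 29.2 and 26.6 CPM at E16.5 and 8.24 CPM at P3. On the ventricular side the level was 0.563 and 0.431 CPM at E12.5, 0.655 and 0.175 CPM at E14.5, 0.0934 and 0.0221 CPM at E16.5 and 0.0659 CPM at P3, from 1 to 32 UMIs per library. Every atrial value lay above every ventricular value, and endothelial barcodes of the same hearts held at most 1.25 CPM. In edgeR's quasi-likelihood test on sums per library, the log2 difference of atrial over ventricular was 7.81 (SE 0.18, adjusted p = 6.18e-19) at E12.5, 6.95 (SE 0.24, adjusted p = 3.96e-16) at E14.5 and 8.54 (SE 0.33, adjusted p = 2.72e-15) at E16.5. These sizes rest on the few ventricular UMIs, and the difference between the E16.5 and the E12.5 contrast was 0.73 (SE 0.67), with an adjusted p of 0.557 by edgeR, and it was 2.06 without E16.5 replicate 1 and 0.28 without E16.5 replicate 2. Of the members, 3 passed edgeR's filter on low counts here and Pitx1 did not. Shox2 had few ventricular UMIs and is left out of the count of calls. Of Prrx1 and Prrx2, 1 was called at E12.5, where 33.7% of 13522 genes were called, 1 at E14.5 against 29.5%, and both at E16.5 against 33.8%.

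Within the atrial side Shox2 was detected in a small share of barcodes, and in a smaller share as development went on. A share with a UMI also falls when each barcode holds less, so it does not tell fewer carrying barcodes from a lower level. After each barcode had been thinned to 2000 UMIs, 11.1 and 10.48% of atrial-side barcodes held a Shox2 UMI at E12.5, while E14.5 gave 8.55 and 5.56%, E16.5 gave 2.89 and 3.06% and P3 gave 1.40%, where thinned endothelial barcodes held one in at most 0.398% of cases from E12.5 on. As counted, at median depths of 19078, 15335 and 14540 UMIs, 18.6 and 20.4% held one at E12.5 and 2.97% at P3, against 0.774, 0.670 and 0.196% of endothelial barcodes at 17325, 17793 and 22046 UMIs. The fall between stages passed the test on both steps, at -1.01 (SE 0.14, adjusted p by edgeR = 5.71e-05) from E12.5 to E14.5 and at -0.97 (SE 0.17, adjusted p by edgeR = 4.84e-04) from E14.5 to E16.5. Called in these atrial contrasts were 2 of the 3 members tested each time, Shox2 and Prrx2, against 7.25% of genes from E12.5 to E14.5 and 11.9% from E14.5 to E16.5. The first step was not called in thinned sums (-0.37, adjusted p by edgeR = 0.610) nor at a Tnnt2 gate of 5000 CPM (-0.34, adjusted p = 0.836). The second was not called under the study's mitochondrial ceilings (-0.33, adjusted p by edgeR = 0.372), at the higher Tnnt2 gate (-0.17, adjusted p = 0.836) or without E14.5 replicate 1 (-0.66, adjusted p = 0.0593).

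The mitochondrial share moved with Shox2. Atrial-side barcodes with under 1% mitochondrial UMIs made up 26.4 and 30.8% of the class at E12.5, and they held 4.22 and 15.7 CPM of Shox2 against 124 and 144 CPM in the other atrial-side barcodes. The contrast was there again at E14.5, with 2.58 and 5.96 CPM against 82.3 and 60.5 CPM, and at E16.5, with 6.48 and 4.30 CPM against 31.9 and 29.3 CPM. Prrx2 differed less, and in the later hearts the other way, with 166 and 134 CPM in barcodes under 1% against 158 and 153 CPM at E12.5, 177 and 167 CPM against 112 and 100.1 CPM in E14.5 hearts, and 63.2 and 64.5 CPM against 46.4 and 49.6 CPM in those of E16.5. With the barcodes under 1% left out of every class, atrial Shox2 differed by -0.91 (SE 0.13, adjusted p by edgeR = 1.46e-04) from E12.5 to E14.5 and by -1.07 (SE 0.17, adjusted p = 1.29e-04) from E14.5 to E16.5, and its chamber differences were 7.82, 7.14 and 8.60. This split was made after the values had been seen.

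The sinus node was approached through 4 pacemaker genes that are not members: Hcn4, the pacemaker channel gene, the transcription factor genes Tbx3 and Isl1, and Vsnl1, a calcium sensor gene. Atrial-side barcodes with UMIs of at least 2 of them came to 32 and 44 in the E12.5 libraries, 22 and 8 in those of E14.5, 13 and 14 in those of E16.5, and 26 at P3. Shox2 stood at 382 and 434 CPM in them at E12.5, against 70.8 and 71.0 CPM in the other atrial-side barcodes. At E14.5 it stood at 309 and 479 CPM against 47.9 and 26.4 CPM. The E16.5 values were 333 and 326 CPM against 13.98 and 11.6 CPM, and at P3 183 CPM (147 to 224) faced 3.40 CPM (2.60 to 4.36). The pacemaker-marker barcodes thus kept levels of the same order from E12.5 to E16.5, where those of the other atrial-side barcodes fell at each stage. Thinned to 2000 UMIs, 37.5 and 38.6% of pacemaker-marker barcodes held a Shox2 UMI at E12.5 and 38.5 and 28.6% at E16.5, against 7.66 and 6.21%, and 1.63 and 2.03%, of the others.

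**Figure D2:**
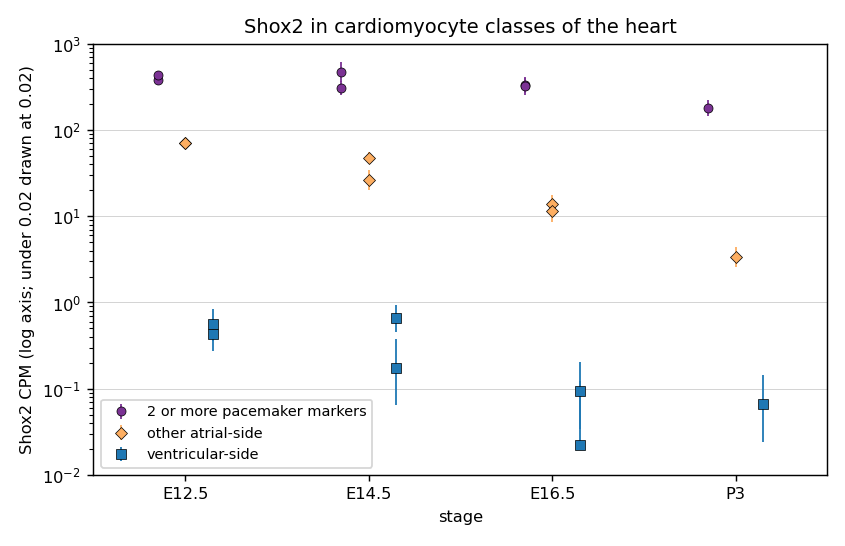
Shox2 level in CPM, on a logarithmic axis, in pacemaker-marker atrial-side barcodes, other atrial-side barcodes and ventricular-side barcodes of each library by stage, with exact 95% Poisson intervals. Pacemaker-marker barcodes lay between 183 and 479 CPM, while the other atrial-side barcodes went from 71.0 CPM at E12.5 down to 3.40 CPM at P3.

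The log2 difference of Shox2 between pacemaker-marker and other atrial-side cardiomyocytes was 2.36 (SE 0.15, adjusted p by edgeR = 4.10e-09) at E12.5, 2.70 (SE 0.26, adjusted p = 3.38e-06) at E14.5 and 4.43 (SE 0.24, adjusted p = 2.56e-10) at E16.5. The sum of 8 barcodes at E14.5 was left out of the fit, so this stage had 1 pacemaker-marker sum, assumed to vary like the others. The contrast was 2.07 (SE 0.27) larger at E16.5 than at E12.5, with an adjusted p of 6.66e-04 by edgeR. In thinned sums this difference was 1.58 and was not called (adjusted p by edgeR = 0.733). None of the pacemaker-marker barcodes had under 1% mitochondrial UMIs, against 22.6 to 37.9% of the other atrial-side barcodes from E12.5 to E16.5. Among those others, barcodes under 1% were shallower, with median UMIs of 3656 to 6067.5 in a library against 12804 to 22162 at 1% or more. The gate needs UMIs of 2 marker genes, and how far depth set this difference was not tested. With the barcodes under 1% left out, the other barcodes held 78.9 and 79.1 CPM of Shox2 at E12.5. They held 58.6 and 32.6 CPM in E14.5 hearts and 14.92 and 12.49 CPM in those of E16.5. These values were still below the pacemaker-marker barcodes of the same library, and this split was made after the values had been seen. Shox2 was the 1 member called among the 3 tested at each stage, against 2.70% of 11443 genes at E12.5, 4.38% for E14.5 and 2.28% for E16.5, and the 1 member called for the difference between stages, against 0.122% of genes. With the library as a replicate block, 438 genes were called at E16.5 in place of 261, and leaving out E16.5 replicate 2 gave 59.

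Neither Prrx gene was called between pacemaker-marker and other atrial-side cardiomyocytes with the settings used throughout. Prrx2 stood at 156 and 183 CPM in the marker barcodes of E12.5 against 159 and 145 CPM in the others (log2 difference -0.01, SE 0.14, adjusted p by edgeR = 0.991). At E16.5, 97.6 and 48.0 CPM faced 45.7 and 51.4 CPM, so that 1 library was high and the other was not (log2 difference 0.41, SE 0.28, adjusted p by edgeR = 0.566). At E14.5, 88.3 and 108 CPM faced 127 and 115 CPM, with a log2 difference of -0.74 (SE 0.29, adjusted p by edgeR = 0.175) that was called with no zone left out around the chamber split (-0.86, adjusted p = 0.0227). Prrx1 had 0 to 7 UMIs in the pacemaker-marker sums, too few to compare.

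Genes listed for the sinus node and for the working myocardium gave the surroundings of Shox2. Between pacemaker-marker and other atrial-side cardiomyocytes, 8, 9 and 9 of the 10 sinus node genes were higher at E12.5, E14.5 and E16.5 and none was lower, with medians of 2.55, 3.08 and 3.96 against -0.02, -0.03 and -0.08 over all genes. The higher count was 5 at E12.5 without E12.5 replicate 2 and 5 at E16.5 without E16.5 replicate 2. With a gene that one side lacked held at the bound that 3 UMIs give, the E14.5 median was 2.48. Of these 10 genes, 4 had chosen the barcodes and are no result. The counts and medians over the 10 include them and are in part fixed by that choice. Bmp4, a signalling ligand gene of the sinus venosus region, was higher by 3.31, 5.01 and 4.77 on the log2 scale. Cacna2d2, a calcium channel subunit gene, was higher by 1.12, 2.15 and 2.13. Of 8 working myocardium genes, 4, 3 and 3 were lower, with 0, 1 and 1 higher, and the median was -0.74, -0.75 and -0.68. The lower count was 2 at E12.5 without E12.5 replicate 1, 1 at E14.5 without E14.5 replicate 2 and 1 at E16.5 without E16.5 replicate 2, and the 1 higher gene of E16.5 was not called without any single library of the fit. Nppa, the atrial natriuretic peptide gene, fell by 2.11, 1.29 and 4.13, and Gja5, a gap junction gene of fast-conducting muscle, fell by 1.87, 1.40 and 1.53. Genes with the pattern most like Shox2 on the atrial side at E12.5 were sought by comparing thinned barcodes with a Shox2 UMI (31 and 35) to those without. Of 395 genes ranked, the leading 8 by their lower log2 ratio over the 2 libraries were Bmp4 (3.36), Igfbp5 (2.32), Bambi (1.67), Id2 (1.53), Cacna2d2 (1.49), Crip1 (1.20), Ccnd2 (1.15) and Csrp2 (1.03). Bmp4, Bambi and Id2 belong to BMP signalling or respond to it. In this and the later rankings, a gene needed at least 20 thinned UMIs in the barcodes with the member, in each library ranked. A gene with fewer, such as Smoc2 with 4 and 8 here, was not ranked whatever its ratio. The Shox2 barcodes come from only 2 libraries, and the ratios are a description.

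Between the whole atrial and ventricular sides, 7 of the 10 sinus node genes were higher at each stage and 1, 1 and 2 were lower, with medians of 1.81, 1.80 and 2.04 against 0.01, -0.01 and -0.02 over all genes. Without E14.5 replicate 1 the higher count at E14.5 was 4, without E12.5 replicate 1 the lower count at E12.5 was 0, and without either E16.5 library that at E16.5 was 1. Tbx18, a gene of the sinus horns and of the epicardium, was among the lower ones, at -0.61, -1.70 and -1.67. Working myocardium genes were higher in 5, 6 and 5 of 8 cases and lower in 1 at each stage, or in 2 at E16.5 without either E12.5 library. The lower one was Gja1, a gap junction gene of working muscle, at -2.31, -1.58 and -1.20.

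Prrx2 was present in cardiomyocytes of both chambers and fell with stage. All cardiomyocytes held 263 CPM (245 to 282) at E8.5, 173 and 161 CPM at E10.5, 116 and 115 CPM at E12.5, 83.2 and 77.8 CPM at E14.5, 18.2 and 17.7 CPM at E16.5 and 4.17 CPM (3.802 to 4.57) at P3. Endothelial barcodes of the same libraries, the background in hearts, held 7.11 and 5.53 CPM at E12.5, 9.63 and 7.36 CPM at E14.5, 4.47 and 5.14 CPM at E16.5 and 2.34 CPM at P3. In thinned barcodes the shares with a UMI were 21.003 and 19.9% in cardiomyocytes of E12.5 against 1.55 and 0.782% in endothelial barcodes thinned to the same depth. The level was thus above this background in cardiomyocytes at each stage from E12.5 to E16.5. At P3 the ventricular side, at 2.74 CPM, lay close to it, while the atrial side, at 11.2 CPM, lay above it.

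Prrx2 fell further on the ventricular side from E12.5 to E16.5. Atrial-side cardiomyocytes held 159 and 151 CPM at E12.5, 124 and 115 CPM at E14.5, 48.2 and 51.2 CPM at E16.5 and 11.2 CPM at P3. The ventricular side held 110 and 112 CPM, 79.5 and 75.4 CPM, 15.5 and 14.55 CPM, and 2.74 CPM at the same stages. Both atrial values lay above both ventricular values at each stage with 2 libraries. Atrial exceeded ventricular by a log2 difference of 0.35 (SE 0.07, adjusted p by edgeR = 6.43e-04) at E12.5, 0.54 (SE 0.08, adjusted p = 1.79e-05) at E14.5 and 1.58 (SE 0.09, adjusted p = 5.29e-12) at E16.5. It was 1.23 (SE 0.12) larger at E16.5 than at E12.5, with an adjusted p of 1.25e-07 by edgeR. For this difference between stages both Prrx genes were called, against 13.1% of genes. At E12.5 the chamber difference was not called in thinned sums (0.34, adjusted p by edgeR = 0.109) and was 0.00 at a Tnnt2 gate of 5000 CPM (adjusted p = 0.992). Barcodes with under 1% mitochondrial UMIs made up 35.6 and 34.5% of the ventricular side at E12.5, 15.8 and 13.96% in E14.5 hearts and 6.66 and 4.88% in those of E16.5, against 26.4 and 30.8%, 31.6 and 36.4%, and 26.8 and 21.7% of the atrial side. Without them the chamber difference was 0.38 at E12.5, 0.29 (SE 0.09, adjusted p by edgeR = 0.0130) in E14.5 hearts and 1.49 in those of E16.5, and the change from E12.5 to E16.5 was 1.10 (SE 0.12, adjusted p = 1.40e-06).

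Between stages Prrx2 fell by 0.56 (SE 0.07, adjusted p by edgeR = 1.08e-06) and then by 2.17 (SE 0.07, adjusted p = 9.59e-16) on the ventricular side. On the atrial side it fell by 0.37 (SE 0.08, adjusted p by edgeR = 8.47e-03) and then by 1.14 (SE 0.10, adjusted p = 2.38e-08). Without barcodes under 1% mitochondrial UMIs the first atrial step was -0.60 (SE 0.09, adjusted p by edgeR = 2.12e-04). That step turned to 0.10 at the higher Tnnt2 gate and was not called in thinned sums or without E12.5 replicate 1, E14.5 replicate 1 or E14.5 replicate 2, where the adjusted p was 0.0581, 0.0934 and 0.111. On the ventricular side both Prrx genes were called from E12.5 to E14.5, against 38.4% of genes, and from E14.5 to E16.5, against 41.4%. Shox2 had 32 and 6 UMIs there in E14.5 hearts, then 6 and 1 in those of E16.5, too few to count its call.

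Prrx1 went the other way in ventricular cardiomyocytes. The ventricular side held 1.13 and 1.65 CPM at E12.5, 4.91 and 5.56 CPM at E14.5, 12.6 and 11.5 CPM at E16.5 and 18.0 CPM (17.2 to 18.9) at P3, each stage above the one before. On the atrial side it held 1.58 and 2.96 CPM, 5.26 and 4.40 CPM, 4.67 and 4.59 CPM, and 12.2 CPM (10.7 to 13.95). The endothelial background in these hearts was at most 0.721 CPM from E12.5 to E16.5 and 1.89 CPM at P3, lower than both sides. Ventricular cardiomyocytes without any collagen UMI held less at E12.5, at 0.757 and 1.37 CPM, and nearly the same later, at 5.28 and 5.32 CPM, 12.6 and 12.6 CPM, and 17.1 CPM. Shares of thinned ventricular barcodes with a Prrx1 UMI were 0.182 and 0.239% at E12.5 and 2.06 and 2.00% at E16.5, against 0 of 422 and 0 of 364 endothelial barcodes at E16.5, which allows up to 0.711 and 0.824%. At E8.5 and E10.5 the cardiomyocyte level, 9.90 and then 8.43 and 8.34 CPM, did not exceed that of endothelial barcodes by more than counting error or lay below it (8.72, 16.1 and 11.2 CPM). Erythroid barcodes held 0.388 CPM from 1 UMI at E8.5 and 4.29 and 9.28 CPM at E10.5, so no one level can be taken as the background in the embryos. The P3 barcodes carry 2 suffixes, which differed, at 14.9 and 26.8 CPM of Prrx1 on the ventricular side. Pooled P3 intervals cover counting error only and not this difference. The study itself saw significant batch differences at P3 alone.

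The ventricular rise of Prrx1 was 1.84 (SE 0.16, adjusted p by edgeR = 7.70e-09) from E12.5 to E14.5 and 1.40 (SE 0.12, adjusted p = 2.97e-09) from E14.5 to E16.5 on the log2 scale. On the atrial side the differences were 1.11 (SE 0.39, adjusted p by edgeR = 0.0883) and 0.04 (SE 0.33, adjusted p = 0.965), neither called, although without E12.5 replicate 2 the first was (1.62, adjusted p = 0.0467). The chamber difference of atrial over ventricular therefore changed, from 0.56 (SE 0.34, adjusted p by edgeR = 0.216) at E12.5 through -0.16 (SE 0.27, adjusted p = 0.706) at E14.5 to -1.52 (SE 0.20, adjusted p = 3.06e-06) at E16.5. The difference between the E16.5 and E12.5 contrasts was -2.08 (SE 0.43, adjusted p by edgeR = 1.77e-03). It was not called in thinned sums (-1.48, adjusted p by edgeR = 0.659), at the higher Tnnt2 gate (-1.73, adjusted p = 0.260) or without E12.5 replicate 2 (-1.86, adjusted p = 0.0613). The E16.5 chamber difference itself was not called in thinned sums (-1.02, adjusted p by edgeR = 0.153), and that at E12.5 was called under the study's mitochondrial ceilings (1.06, adjusted p = 0.0349).

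**Figure D3:**
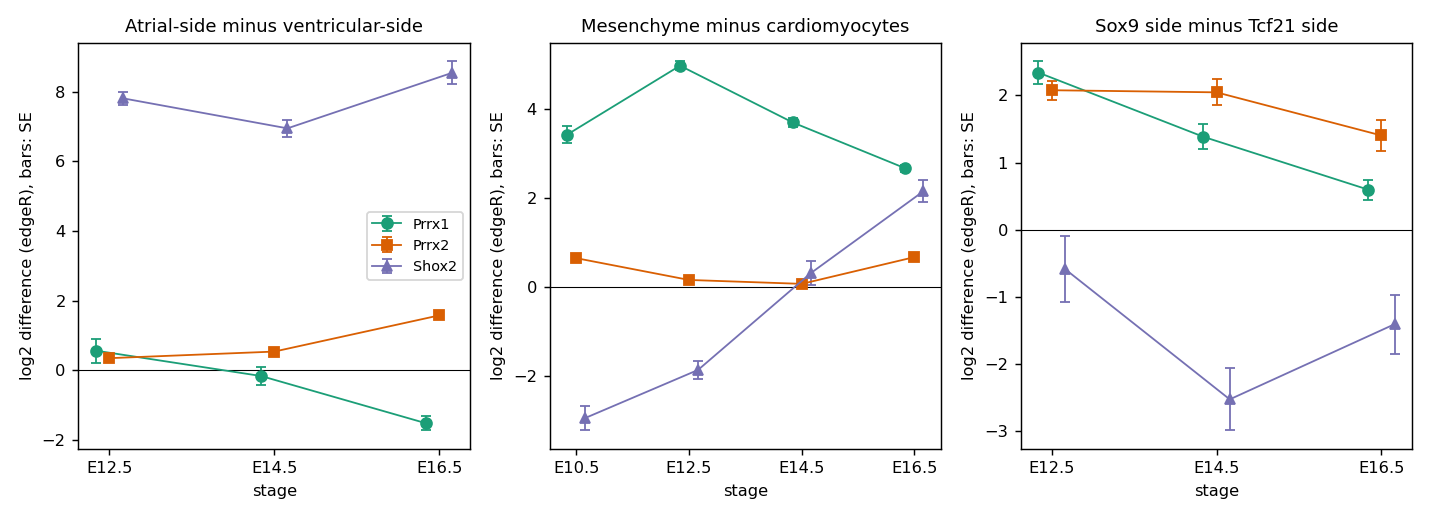
Log2 differences of Shox2, Prrx1 and Prrx2 by stage from edgeR, with standard errors as bars, for atrial over ventricular, mesenchyme over cardiomyocytes, and the Sox9 over the Tcf21 side of mesenchyme. The chamber difference of Prrx2 went from 0.35 to 1.58 and that of Prrx1 from 0.56 to -1.52 between E12.5 and E16.5, and the mesenchyme difference of Shox2 from -1.86 to 2.16.

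Mesenchyme was checked on genes outside its gate. Pdgfra, a fibroblast and mesenchyme receptor gene, was at 31.6 to 82.3 CPM in it and at most 11.6 CPM in cardiomyocytes. Prrx1 was the member that marked it at every stage. Its level was 62.6 CPM (54.8 to 71.2) at E8.5, 96.8 and 90.0 CPM at E10.5, 64.0 and 60.7 CPM at E12.5, 76.6 and 77.7 CPM at E14.5, 81.1 and 84.2 CPM at E16.5 and 108 CPM (104 to 113) at P3. All these values lay above every cardiomyocyte value. The log2 difference of mesenchyme over cardiomyocytes was 3.43 (SE 0.19, adjusted p by edgeR = 7.02e-13) at E10.5, 4.97 (SE 0.10, adjusted p = 1.89e-21) at E12.5, 3.70 (SE 0.09, adjusted p = 5.75e-20) at E14.5 and 2.67 (SE 0.08, adjusted p = 1.54e-18) at E16.5. It was 2.31 lower at E16.5 than at E12.5 (difference -2.31, SE 0.14, adjusted p by edgeR = 6.83e-12). All cardiomyocytes together held 1.498 and 1.975 CPM of Prrx1 at E12.5 and 12.0095 and 10.85 CPM at E16.5.

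Prrx2 was found in mesenchyme as well as in cardiomyocytes. Mesenchyme held 240 CPM (224 to 256) at E8.5, 265 and 278 CPM at E10.5, 147 and 144 CPM at E12.5, 102 and 92.2 CPM at E14.5, 30.8 and 34.7 CPM at E16.5 and 13.4 CPM at P3. The log2 difference over cardiomyocytes was 0.65 (SE 0.09, adjusted p by edgeR = 1.35e-06) at E10.5, 0.16 (SE 0.07, adjusted p = 0.0337) at E12.5, 0.07 (SE 0.07, adjusted p = 0.361) at E14.5 and 0.68 (SE 0.09, adjusted p = 2.50e-07) at E16.5. The difference between E16.5 and E12.5 was 0.51 (SE 0.11, adjusted p by edgeR = 6.72e-04), which was not called without E16.5 replicate 2 (0.35, adjusted p = 0.0681). With a gate of 30 collagen UMIs the E10.5 difference turned to -0.18 (adjusted p by edgeR = 0.346) and the E12.5 one to -0.26 (adjusted p = 9.37e-03), and at E12.5 the call was lost without any single library of the fit, at 0.05 to 0.18. The E16.5 difference was 0.41 without E16.5 replicate 2 (adjusted p by edgeR = 5.44e-03).

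For Shox2 the order of mesenchyme and all cardiomyocytes together turned over. Mesenchyme held 1.08 CPM (4 UMIs) at E8.5, 7.41 and 10.2 CPM at E10.5, 3.55 and 4.41 CPM at E12.5, 8.09 and 5.60 CPM at E14.5, 13.7 and 10.2 CPM at E16.5 and 8.43 CPM at P3. All cardiomyocytes together held 12.2 CPM at E8.5, 72.8 and 54.9 CPM at E10.5, 12.6 and 13.3 CPM at E12.5, 6.25 and 3.23 CPM at E14.5, 2.49 and 2.35 CPM at E16.5 and 1.43 CPM at P3. All cardiomyocytes together were higher in both libraries of E10.5 and E12.5 and lower in both of E16.5. On the atrial side alone, mean Shox2 stayed above that of mesenchyme from E12.5 to E16.5. The means were 122, 58.3 and 27.9 CPM against 3.98, 6.84 and 11.9 CPM. At P3 the atrial side held 8.24 CPM, close to mesenchyme. The log2 difference of mesenchyme over cardiomyocytes was -2.94 (SE 0.28, adjusted p by edgeR = 8.74e-09), -1.86 (SE 0.20, adjusted p = 2.59e-08), 0.32 (SE 0.26, adjusted p = 0.287) and 2.16 (SE 0.24, adjusted p = 3.48e-08) from E10.5 to E16.5, and its change from E12.5 to E16.5 was 4.01 (SE 0.32, adjusted p = 9.86e-10). At the Tnnt2 gate of 5000 CPM the E12.5 difference was -0.34 and not called (adjusted p by edgeR = 0.393), and the E14.5 difference was called, at 1.83 (adjusted p = 1.56e-04).

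Pitx1 had few UMIs in cardiomyocytes and in heart mesenchyme, so calls are counted over the other 3 members. Between mesenchyme and cardiomyocytes these 3 were called at E10.5, against 39.4% of 14721 genes, and at E12.5 against 73.7%. Called at E14.5 was 1 of the 3 against 71.5%, and all 3 at E16.5 against 74.2%. For the difference between E16.5 and E12.5 they were called too, against 35.6% of genes. Of 16 listed mesenchymal transcription factor genes, none of them a member, 12, 15, 16 and 15 were higher in mesenchyme from E10.5 to E16.5 and 1, 1, 0 and 0 lower, with medians of 2.97, 4.55, 5.20 and 6.13 against 0.06, 0.10, 0.10 and 0.11 over all genes. Twist1, a basic helix-loop-helix factor gene of mesenchyme, was higher by 4.19, 6.74, 7.35 and 7.62. Of 14 paired-class homeobox genes, the members included, 10, 8, 4 and 8 were higher and 1, 2, 1 and 0 lower. These counts are a description, since 3, 3, 7 and 8 of the 14 had no UMI on one side. The medians of 2.88, 2.61, 0.38 and 2.41 became 1.57, 1.78, 0.38 and 1.34 with those genes held at the bound that 3 UMIs give. A gene that passed the filter on low counts through embryo mesenchyme alone, as Pitx1 did, had to be higher there at E10.5. No conclusion is drawn from these counts and medians. The higher count was 6 at E10.5 without E10.5 replicate 2, 5 at E12.5 without E12.5 replicate 2 and 1 at E14.5 without E14.5 replicate 1. The lower count was 1 at E12.5 without E12.5 replicate 1 and 0 at E14.5 without either E14.5 library, and the 1 lower mesenchymal factor gene of E12.5 was not called without E12.5 replicate 2.

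**Figure D4:**
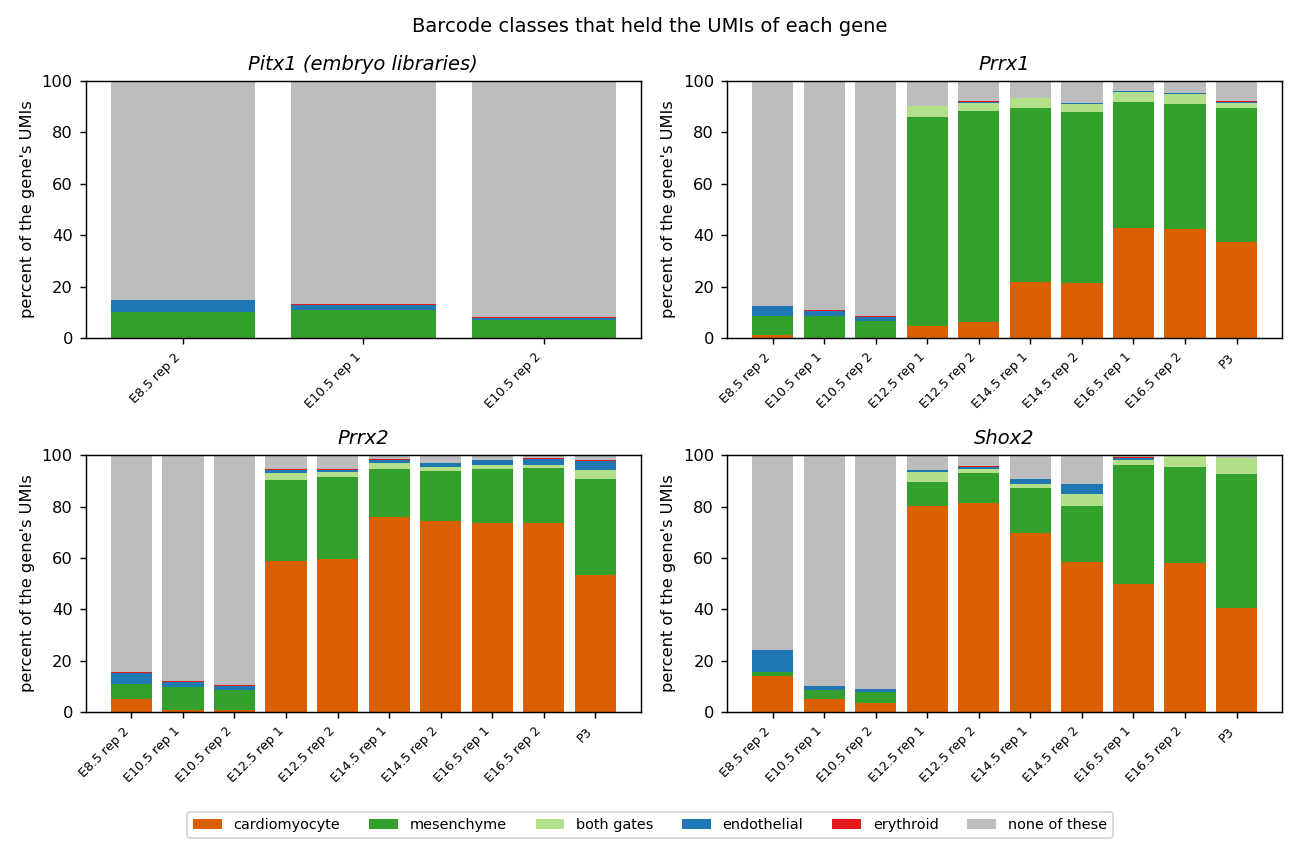
Share of each gene's UMIs, in percent of its UMIs in all kept barcodes, that fell in each barcode class, per library, with Pitx1 shown for the embryo libraries only. Barcodes of none of the classes held 76.0 to 91.9% of the members' UMIs in embryos, where they held 84.7 to 87.4% of the UMIs of all genes. In replicate 1 the cardiomyocyte share of Prrx1 went from 4.53% at E12.5 to 43.0% at E16.5, while the cardiomyocyte share of all UMIs went from 48.3 to 66.9%.

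The share of a gene's UMIs in a class weighs its level by the RNA that the class gave. Cardiomyocytes held 4.53 and 6.28% of the Prrx1 UMIs of kept barcodes at E12.5, rising to 21.8 and 21.6% in E14.5 hearts, 43.0 and 42.4% in those of E16.5 and 37.3% at P3. Mesenchyme held 81.6 and 82.1% of them at E12.5 and 48.9 and 48.7% at E16.5. Cardiomyocytes held most Prrx2 UMIs in hearts, with shares of 58.7 and 59.7% at E12.5, against 76.0 and 74.5% in E14.5 hearts. Their Prrx2 share was 73.5% in both E16.5 libraries and 53.2% at P3. For all genes together the cardiomyocyte share was 48.3 and 49.1% in E12.5 hearts, then 63.2 and 60.7% in those of E14.5. It was 66.9 and 67.5% in E16.5 hearts, and 69.6% at P3. The Prrx2 share thus lay above that of all genes from E12.5 to E16.5 and below it at P3. The cardiomyocyte share of Shox2 was 80.2 and 81.6% at E12.5 and 49.9 and 58.2% at E16.5, and its mesenchymal share went from 9.52 and 11.6% to 46.2 and 37.3%. These shares depend on how many barcodes each class gave in a library.

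Within heart mesenchyme, Prrx1 and Prrx2 stood higher on the side of Sox9, a transcription factor gene of cushion and valve mesenchyme, than on the side of Tcf21, one of cardiac fibroblasts. Barcodes with a UMI of one and none of the other were compared, 145 to 609 on the Sox9 side and 60 to 126 on the Tcf21 side in the tested libraries. Barcodes with both were left out, 288 and 360 at E12.5, 132 and 123 in E14.5 hearts, 332 and 236 in those of E16.5 and 960 at P3, as were 146 to 319 with neither. Prrx1 was at 98.8 and 86.5 CPM on the Sox9 side against 20.5 and 12.8 CPM on the Tcf21 side at E12.5. At E14.5 it was at 117 and 106 CPM against 40.4 and 35.5 CPM, and at E16.5 at 113 and 122 CPM against 72.5 and 69.0 CPM. At P3 the levels were 124 CPM (110 to 139) and 101 CPM (93.0 to 110), whose intervals overlap at their ends. The Sox9 side thus stayed between 86.5 and 124 CPM, while each stage on the Tcf21 side lay above the one before.

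For Prrx1 this came to a log2 difference of 2.34 (SE 0.17, adjusted p by edgeR = 1.45e-10), 1.39 (SE 0.18, adjusted p = 6.20e-06) and 0.60 (SE 0.15, adjusted p = 0.0114) at E12.5, E14.5 and E16.5, and it shrank by 1.74 between E12.5 and E16.5 (difference -1.74, SE 0.24, adjusted p = 5.45e-05). The E16.5 difference was not called without E16.5 replicate 1 (0.66, adjusted p by edgeR = 0.143) or replicate 2 (0.55, adjusted p = 0.210). Prrx2 was at 228 and 210 CPM against 51.8 and 41.6 CPM at E12.5, 167 and 140 CPM against 36.9 and 29.2 CPM at E14.5, and 53.3 and 65.0 CPM against 15.97 and 26.2 CPM at E16.5. Its log2 differences were 2.08 (SE 0.14, adjusted p by edgeR = 3.58e-11), 2.05 (SE 0.20, adjusted p = 4.59e-08) and 1.40 (SE 0.23, adjusted p = 1.91e-04), with both sides falling. The change of the Prrx2 difference from E12.5 to E16.5 was -0.67 (SE 0.29) and was not called (adjusted p by edgeR = 0.245). In thinned sums neither E16.5 difference was called, at 0.54 (adjusted p by edgeR = 0.453) for Prrx1 and 1.19 (adjusted p = 0.159) for Prrx2, nor was that of Prrx1 at E14.5 (1.01, adjusted p = 0.0917).

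**Figure D5:**
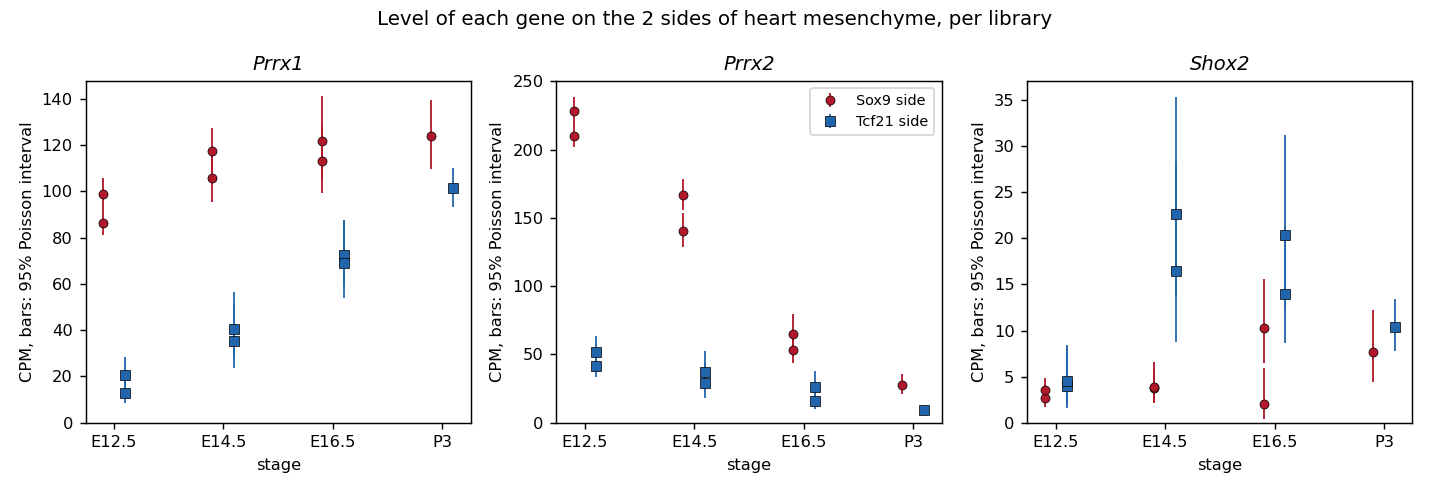
Level of Prrx1, Prrx2 and Shox2 in CPM, on linear axes, on the Sox9 and the Tcf21 side of mesenchyme in each heart library by stage, with exact 95% Poisson intervals. Prrx1 and Prrx2 were higher on the Sox9 side in all heart libraries, while Shox2 was higher on the Tcf21 side at E14.5.

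Shox2 leaned to the Tcf21 side. It was at 2.72 and 3.59 CPM on the Sox9 side against 3.99 and 4.57 CPM on the Tcf21 side at E12.5, at 3.72 and 3.92 CPM against 22.6 and 16.48 CPM at E14.5, and at 10.3 and 2.03 CPM against 13.97 and 20.4 CPM at E16.5, from 3 to 40 UMIs per sum. The log2 difference of the Sox9 over the Tcf21 side was -0.58 (SE 0.49, adjusted p by edgeR = 0.434), -2.52 (SE 0.46, adjusted p = 3.26e-04) and -1.40 (SE 0.44, adjusted p = 0.0489). The E14.5 call was lost without E14.5 replicate 1 (-2.24, adjusted p by edgeR = 0.0674), and the E16.5 call was lost in DESeq2 (-1.48, adjusted p = 0.0724), without E16.5 replicate 2 (-0.54, adjusted p by edgeR = 0.694) and without any E12.5 or E14.5 library, where the adjusted p was 0.0589 to 0.0649. Of the 3 members tested between the sides, 2 were called at E12.5 against 26.3% of 10430 genes, 3 at E14.5 against 15.6% and 3 at E16.5 against 8.56%. For the change from E12.5 to E16.5, 1 of the 3 was called against 4.37%.

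Among 15 tested mesenchymal transcription factor genes, 11, 8 and 6 were higher on the Sox9 side and 2, 3 and 3 lower, with medians of 1.32, 1.23 and 0.64 against medians of at most 0.01 in size over all genes. Without E16.5 replicate 2 the lower count at E16.5 was 1. Sox9 and Tcf21 are on this list and chose the sides. Msx1, a homeobox gene of cushion mesenchyme, was higher by 2.18, 4.95 and 4.14, and Meox1 by 3.15, 2.89 and 1.92. Tbx18 was lower by -2.31, -1.75 and -0.68. The genes with patterns most like Prrx1 in thinned E12.5 mesenchyme (125 and 174 barcodes with a Prrx1 UMI, 1662 genes ranked) were Lef1 (1.33), Msx1 (1.19), Col9a3 (1.14), Ociad2 (1.03), Lum (1.02), Col2a1 (1.01), Vcan (1.01) and Car3 (0.98), by the lower log2 ratio of the 2 libraries. Those most like Prrx2 at E14.5 (143 and 98 barcodes, 1318 genes ranked) were Papss2 (1.95), Clu (1.54), Msx1 (1.39), Rspo3 (1.18), Col9a3 (1.17), Smad6 (1.12), Htra1 (1.11) and Palld (1.08). Col2a1 and Col9a3 encode cartilage-type collagens, Vcan a proteoglycan of the cushions, and Papss2 an enzyme of sulfate supply. Other stages gave partly other lists. For Prrx1 at E16.5 the leading 8 were Abi3bp (1.27), Tagln (1.27), Myl9 (0.99), Pa2g4 (0.95), Dkk3 (0.88), Pdlim3 (0.88), Cthrc1 (0.87) and Prss35 (0.86). None of these was among its leading 8 at E12.5. For Prrx2 at E16.5, Cthrc1 (0.99), Fxyd6 (0.88) and Vcan (0.87) led. Prrx2 itself was among the leading 8 genes for Prrx1 at E14.5 (0.93), and Prrx1 among those for Prrx2 at E10.5 (0.74). In thinned mesenchymal barcodes, both genes were seen together in 43 and 73 barcodes at E12.5, against 29.3 and 41.3 if independent, in 32 and 25 against 21.03 and 13.8 at E14.5, and in 9 against 10.3 at P3. These counts carry no test.

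Over stages, mesenchymal Prrx2 fell at each step, by 0.93 (SE 0.07, adjusted p by edgeR = 4.02e-09) from E10.5 to E12.5, by 0.65 (SE 0.07, adjusted p = 4.63e-06) to E14.5 and by 1.39 (SE 0.09, adjusted p = 2.94e-09) to E16.5. Prrx1 fell by 0.62 (SE 0.07, adjusted p by edgeR = 6.81e-07) from E10.5 to E12.5 and then rose by 0.24 (SE 0.07, adjusted p = 0.0143) and 0.29 (SE 0.07, adjusted p = 7.52e-03). Shox2 fell by 1.15 (SE 0.22, adjusted p by edgeR = 2.19e-04) and then rose by 0.73 (SE 0.23, adjusted p = 0.0214) and 1.00 (SE 0.22, adjusted p = 2.50e-03). These 3 members were called from E10.5 to E12.5, against 62.5% of 13287 genes, from E12.5 to E14.5, against 31.5%, and from E14.5 to E16.5, against 27.3%. The later rises of Prrx1 and Shox2 were not called in thinned sums, and the rises from E12.5 to E14.5 were not called in DESeq2 (adjusted p = 0.0740 for Prrx1 and 0.0708 for Shox2). Leaving out 1 library also ended these calls. The Prrx1 rise to E14.5 was not called without E12.5 replicate 2 (0.21), E14.5 replicate 1 (0.26) or E14.5 replicate 2 (0.26), with adjusted p by edgeR of 0.0596, 0.0789 and 0.0782, and that to E16.5 not without E14.5 replicate 1 (0.27) or replicate 2 (0.28), with 0.0857 and 0.0712. The Shox2 rise to E14.5 was not called without E12.5 replicate 1 (0.62, adjusted p by edgeR = 0.0957) or E14.5 replicate 1 (0.43, adjusted p = 0.343), nor that to E16.5 without E16.5 replicate 1 (0.71, adjusted p = 0.0906). With 30 collagen UMIs the step from E10.5 to E12.5 was 0.07 for Prrx1 and 2.51 for Shox2, with no call.

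Paired-class and position genes were compared over the same step from embryo to heart, in which 62.5% of all genes were called in one direction or the other. A gene that passes the filter on low counts through the embryo libraries alone has to be lower here, so no count or median is given over the 14 paired-class homeobox genes or the 12 genes of limb and arch position listed. As a description, Alx1, a paired-class gene of facial mesenchyme, had 520 UMIs in embryo mesenchyme and 66 in heart mesenchyme. Barx1, a homeobox gene of arch and stomach mesenchyme, had 148 and 24. Both are picked examples that fell, while some position genes were higher, and no conclusion is drawn from them. Mesenchymal transcription factor genes split, with 8 higher and 7 lower of 16. Stage and tissue cannot be told apart in this step.

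Pitx1 was an embryo gene in these libraries. Mesenchyme held 49.95 CPM (43.0 to 57.7) at E8.5 and 41.4 and 29.9 CPM at E10.5, from 185, 414 and 246 UMIs. Endothelial barcodes held 6.60 CPM at E8.5 and 5.41 and 2.50 CPM at E10.5, and cardiomyocytes 0.660 CPM and then 4.82 and 0.695 CPM, from 2, 8 and 1 UMIs. In thinned mesenchyme, 5.56% of barcodes held a Pitx1 UMI at E8.5 and 6.59 and 8.03% at E10.5. All kept barcodes together held 1816 Pitx1 UMIs at E8.5 and 3863 and 3535 at E10.5, whereas heart libraries held 14 and 6 UMIs at E12.5, 3 and 1 in E14.5 hearts, 1 and 0 in those of E16.5 and none at P3. E12.5 mesenchyme held 15 of these, of which the 11 of replicate 1 lay in 1 barcode. Pitx1 passed the filter on low counts through embryo mesenchyme, so no test against cardiomyocytes or between stages is given for it. At P3, 0 UMIs among 1919 mesenchymal barcodes allow a share of barcodes with a UMI of up to 0.156%.

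In E10.5 mesenchyme the genes with patterns most like Pitx1 (29 and 31 thinned barcodes with a UMI, 313 genes ranked) were Hand1 (2.67), Nrp1 (1.41), Col1a1 (1.38), Gpx3 (1.24), Meg3 (1.21), Peg3 (1.21), Dlk1 (1.18) and H19 (1.05). Hand1 is a transcription factor gene of lateral mesoderm and arch mesenchyme, Nrp1 a receptor gene, and Meg3, Peg3, Dlk1 and H19 are imprinted genes.

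Most embryo barcodes lay outside the cardiomyocyte, mesenchyme, endothelial and erythroid classes, and those barcodes held 84.7% of the UMIs of all genes at E8.5 and 86.6 and 87.4% at E10.5. Their share of the Pitx1 UMIs was 85.1% at E8.5 and 86.7 and 91.9% at E10.5, and that of the other members 76.0 to 91.4%, most of them near the share of all genes. The barcodes were split, after the values had been seen, by a UMI of Pdgfra and by at least 3 UMIs of Epcam, an epithelial adhesion gene. Pitx1 was highest with Epcam at E10.5, at 47.0 and 60.1 CPM against 21.5 and 21.8 CPM with Pdgfra and 12.4 and 10.9 CPM with neither. At E8.5 its order differed, with 25.8 CPM with Pdgfra, 15.8 CPM with Epcam and 7.91 CPM with neither. Prrx1 was highest with Pdgfra, at 53.0 CPM at E8.5 and 99.3 and 103 CPM at E10.5, against 4.53 CPM and then 9.52 and 12.4 CPM with Epcam. Prrx2 had the same order at E10.5, with 245 and 242 CPM with Pdgfra, 66.6 and 89.2 CPM with Epcam and 101 and 99.8 CPM with neither. Shox2 was at 12.1 and 11.6 CPM with Pdgfra, 3.26 and 5.29 CPM with Epcam and 9.97 and 9.25 CPM with neither at E10.5.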

How the data were processed

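Single-cell libraries of E8.5 and E10.5 mouse embryos and of E12.5 to P3 hearts had been made with droplet kits, and the authors deposited counts of UMIs per gene and barcode, unnormalized, made with Cell Ranger (2.1.1 per the submitters' notes, which also name Seurat 3.1.1; headers give 3.1.0 in 9 matrices and 3.0.0 in 1). The 13 sample records gave 10 matrices. E8.5 replicate 1 was not analysed here, E16.5 records 1 and 1F name 1 matrix, and both P3 records name 1 matrix. The members and gene lists were chosen with earlier results of these data known.

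Symbols were taken from the feature tables, where 65 symbols occur more than once, none of them a member. Barcodes with 2000 or more UMIs were kept. Cardiomyocytes (Tnnt2 at 1500 CPM or more) were split at the low point of the density of log2((Myl7 + Sln + 1)/(Myl2 + Myl3 + 1)) per stage, at 1.75, 1.85, 1.2 and -1.15, leaving out barcodes within 1 of it. Mesenchyme had 10 or more collagen UMIs, and endothelial barcodes 5 or more of Pecam1, Cdh5 and Egfl7. Among barcodes that passed neither the Tnnt2 nor the collagen gate, those with over 10% globin UMIs were set apart as erythroid. Endothelial barcodes were then taken from the remaining ones, so cardiomyocytes and mesenchyme were not filtered on globin or endothelial genes. No doublet caller was run. UMIs were summed per library and class (10 barcodes or more) and tested with edgeR 4.0.16 (quasi-likelihood, TMM, filterByExpr, Benjamini-Hochberg over all genes, threshold 0.05) in R 4.3.3. The script was tested on simulated data. p-values measure the spread between libraries, whose independence as cultures or litters is not stated.

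Total UMIs per matrix ranged from 67141166 to 259041468, and median UMIs per kept barcode from 10268 to 24516. Sums of a library come from one suspension, so contrasts within a stage are paired by library; deviations from group means correlated at 0.0127 to 0.177 over the 12 same-library pairs, and at 0.00575 to 0.0547 over 6 pairs that share only a number between stages. Alternatives were DESeq2 1.42.0, its size factors, no filter on low counts, the replicate block, 5000 UMIs, thinning to 2000 UMIs, Tnnt2 at 5000 CPM, 30 collagen UMIs, 3 pacemaker markers, no zone around the chamber split, barcodes of both gates kept, each library left out, and, chosen after seeing the data, the study's mitochondrial ceilings, a floor of 1% mitochondrial UMIs and cardiomyocytes without a collagen UMI. Genes named were the members, examples of the gene lists, and the 8 genes with the highest pattern likeness to a member. That ranking took genes with at least 20 thinned UMIs in the barcodes with the member, in each library. Contrasts of a chamber between stages, differences between the E16.5 and E12.5 contrasts, and the mitochondrial and embryo splits were also chosen after seeing the data.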

Additional observations from a re-analysis of the deposited data

Results flagged for a closer look

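For 7 contrasts the difference between stages was itself past the threshold of edgeR's quasi-likelihood test, over 2 libraries per stage. The chamber difference of Prrx1 (atrial over ventricular) was lower at E16.5 than at E12.5, by a log2 difference of -2.08 (adjusted p = 1.77e-03 by edgeR), and that of Prrx2 was higher by 1.23 (adjusted p = 1.25e-07). The Shox2 difference between pacemaker-marker and other atrial-side cardiomyocytes was higher at E16.5 by 2.07 (adjusted p by edgeR = 6.66e-04). The difference of mesenchyme over cardiomyocytes was lower at E16.5 for Prrx1, by -2.31 (adjusted p by edgeR = 6.83e-12), and higher for Prrx2, by 0.51 (adjusted p = 6.72e-04), and for Shox2, by 4.01 (adjusted p = 9.86e-10). The difference of the Sox9 over the Tcf21 side was lower for Prrx1, by -1.74 (adjusted p by edgeR = 5.45e-05). In thinned sums the changes of Prrx1 between chambers and of Shox2 in pacemaker-marker cells were not called. That of Prrx1 between chambers was also lost at the higher Tnnt2 gate and without E12.5 replicate 2. The change of Prrx2 over cardiomyocytes was lost without E16.5 replicate 2.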

How the results depend on the processing

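Over the members' log2 differences, other settings left direction and side of the threshold unchanged in 638 cases. They lost a call in 35, gained one in 4 and turned the direction in 23. Leaving out libraries gave 423, 30, 1 and 12 in the same order. These counts include contrasts of Pitx1, which passed the filter on low counts through embryo mesenchyme. Values of these Pitx1 contrasts are not given as results, and the one listed below for the gate of 30 collagen UMIs is no result either. With TMM scaling the median log2 difference of all genes lay between -0.08 and 0.11 over the contrasts. It was highest for mesenchyme over cardiomyocytes at E16.5.

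Thinned to 2000 UMIs, calls were lost for Prrx2 between chambers at E12.5 (0.34), Prrx1 between chambers at E16.5 (-1.02), Prrx2 (0.11) between mesenchyme and cardiomyocytes at E12.5, Shox2 in mesenchyme from E10.5 to E12.5 (-1.15), Prrx1 (0.24) and Shox2 (1.07) to E14.5 and Prrx1 (0.21) and Shox2 (0.53) to E16.5, and between the Sox9 and Tcf21 sides Prrx1 at E14.5 (1.01) and E16.5 (0.54) and Prrx2 at E16.5 (1.19). The direction turned for Prrx1 between chambers at E14.5 (0.36) and on the atrial side from E14.5 to E16.5 (-0.22), Prrx2 in pacemaker-marker cells at E16.5 (-1.26) and its change from E12.5 (-0.82), and Shox2 in mesenchyme over cardiomyocytes at E14.5 (-0.29), none of which was called. Thinning also lost calls for the interaction of Prrx1 between chambers (-1.48), of Shox2 in pacemaker-marker cells (1.58), and for Prrx2 (-0.38) and Shox2 (-0.37) on the atrial side to E14.5.

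With Tnnt2 at 5000 CPM, Prrx2 between chambers at E12.5 was 0.0033, Prrx2 on the atrial side from E12.5 to E14.5 turned to 0.10, Prrx2 over cardiomyocytes turned to -0.069 at E12.5 and -0.033 at E14.5, Shox2 over cardiomyocytes was -0.34 at E12.5 and called at 1.83 at E14.5, and calls were lost for the chamber change of Prrx1 (-1.73) and for Shox2 on the atrial side (-0.34 and -0.17). With 30 collagen UMIs, Prrx2 over cardiomyocytes turned to -0.18, -0.26 and -0.24 from E10.5 to E14.5, Pitx1 at E12.5 to -2.56, and from E10.5 to E12.5 Prrx1 to 0.065 and Shox2 to 2.51; Shox2 over cardiomyocytes at E14.5 was called (0.86), and calls were lost for Prrx1 to E14.5 (0.30), Shox2 to E16.5 (0.56), and Prrx1 (0.52) and Shox2 (-1.04) between sides at E16.5. DESeq2 gave 0.24 for Prrx1 and 0.72 for Shox2 in mesenchyme from E12.5 to E14.5 and -1.48 for Shox2 between sides at E16.5, not called, and 0.025 for Prrx2 in pacemaker-marker cells at E12.5, which also turned with DESeq2 size factors (0.027), at 5000 UMIs (0.028) and with a floor of 1% mitochondrial UMIs (0.054). Shox2 between sides at E16.5 was not called at 5000 UMIs (-1.35), with both-gate barcodes kept (-1.33) or under the mitochondrial ceilings (-1.41). Prrx2 over cardiomyocytes at E12.5 was not called with DESeq2 size factors (0.14), no filter (0.028), both-gate barcodes kept (0.15), the ceilings (-0.063) or cardiomyocytes without a collagen UMI (0.050), and at E14.5 it turned with no filter (-0.096), the ceilings (-0.095) or no collagen UMI (-0.0042). The ceilings made Prrx1 called between chambers at E12.5 (1.06) and lost Shox2 on the atrial side to E16.5 (-0.33), no in-between zone made Prrx2 called in pacemaker-marker cells at E14.5 (-0.86), and without collagen UMIs Prrx1 on the atrial side to E16.5 turned to -0.23. The cause was not tested.

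Genes called moved by over 1.5 times in these cases. Thinning gave 1096, 1050 and 1509 between chambers, 205 and 400 for pacemaker-marker cells at E14.5 and E16.5, 2181, 6278, 6194 and 6560 over cardiomyocytes, 3654, 1448 and 1150 between mesenchyme stages, and 637, 467 and 225 between sides. Tnnt2 at 5000 CPM gave 989 and 2285 between chambers at E12.5 and E14.5. For pacemaker-marker cells, no filter gave 511 at E12.5 and 507 at E16.5, 3 markers 529 at E12.5, no zone 1013 at E14.5, and the mitochondrial floor 157 at E14.5. With 30 collagen UMIs, 3381 were called over cardiomyocytes at E10.5, 2952, 2128 and 2191 between stages, and 1731 and 588 between sides at E12.5 and E16.5. DESeq2 called 2531 and 2247 between the later mesenchyme stages. With the library as a replicate block, 438 genes were called in pacemaker-marker cells at E16.5 in place of 261, and the block changed no other member's call or count of genes called where it could be fitted; chamber contrasts between stages had none.

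Leaving out 1 library at a time gave, as lowest and highest values, -2.23 and -1.86 for the chamber change of Prrx1; on the atrial side 0.76 and 1.62 (Prrx1) and -0.43 and -0.31 (Prrx2) to E14.5, and -0.036 and 0.20 (Prrx1) and -1.13 and -0.66 (Shox2) to E16.5; for Prrx2 in pacemaker-marker cells -0.22 and 0.20 at E12.5, -0.42 and 0.88 at E16.5 and -0.42 and 0.89 for its change; for Prrx2 over cardiomyocytes 0.054 and 0.18 at E12.5, -0.066 and 0.077 in E14.5 hearts and 0.35 and 0.57 for its change; in mesenchyme 0.21 and 0.31 (Prrx1) and 0.43 and 0.97 (Shox2) to E14.5, and 0.27 and 0.29 (Prrx1) and 0.71 and 1.31 (Shox2) to E16.5; and between sides -2.72 and -2.24 (Shox2) at E14.5, 0.55 and 0.66 (Prrx1) and -3.46 and -0.54 (Shox2) at E16.5, and -2.91 and 0.020 for the change of Shox2. Genes called ranged from 1701 to 4210 and from 2649 to 4898 between chambers at E14.5 and E16.5, from 101 to 443, 285 to 587 and 59 to 292 for pacemaker-marker cells, from 2614 to 4235 and 2205 to 3766 between the later mesenchyme stages, and from 1385 to 2876, 747 to 1645 and 342 to 877 between sides.

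Depth limits Shox2 on the ventricular side, Prrx1 in pacemaker-marker cells and Pitx1 in hearts, where few UMIs were counted. E8.5 and P3 had 1 matrix each and entered no test. Not run were the higher Tnnt2 gate for pacemaker-marker cells and for mesenchyme at E10.5, where too few barcodes were left, and E14.5 pacemaker-marker cells without E14.5 replicate 1.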

Other observations

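In E10.5 embryo barcodes outside the named classes, Shox2 was seen with genes of neurons. Among 1997 genes ranked by the lower log2 ratio over 2 libraries between thinned barcodes with a Shox2 UMI (190 and 194) and those without, the leading genes were Tlx2 (3.94), Neurod1 (3.61), Pou4f1 (3.43), Ppp1r17 (3.25), Nefm (2.94), Isl1 (2.82), Nefl (2.64) and Stmn2 (2.58). Tlx2, Neurod1, Pou4f1 and Isl1 encode transcription factors of developing neurons, and Nefm and Nefl are neurofilament genes. For Prrx1 the list held Lhx8 (2.33), Dlx1 (2.11), Lhx9 (1.92), Tbx2 (1.85) and Prrx2 (1.72), and for Prrx2 it held Lhx8 (2.38), Gsc (1.92) and Prrx1 (1.92). Lhx8, Dlx1 and Gsc are genes of arch mesenchyme. For Pitx1 it held Dok4 (2.79), Vgll2 (2.62), Hoxa10 (2.31), Gata6 (2.28) and Wnt2 (2.24). In P3 mesenchyme, where 1 matrix was available, Cytl1 (3.92), Npy (3.68), Prg4 (2.90) and Fmod (2.44) led the list for Prrx2. These barcodes were looked at after values had been seen, and the ratios carry no test.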
